A study of Mus musculus with 90 samples.

Results

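The choroid plexus is a sheet of epithelium over a vascular stroma that makes cerebrospinal fluid. In this comparison its p16 high areas of interest (AOIs) were set against the p16 low AOIs of the same mice. Members were the AOIs of mice that had both kinds: 7 p16 high and 7 p16 low AOIs from 7 mice, 14 of the 90 AOIs in the series. Of these mice, 4 had been exposed to chronic social stress (CSS; 1152, 1157, 1162 and 1170) and 3 were controls (ctrl; 1151, 1168 and 1175). A further 2 choroid plexus AOIs, both p16 high (CSS mouse 1163 and ctrl mouse 1182), had no p16 low partner and entered 2 alternatives only. Expression was measured with the GeoMx Digital Spatial Profiler and its mouse Whole Transcriptome Atlas, in which light cleaves barcodes off probes bound to RNA in a chosen area so that they can be counted, on fixed, paraffin-embedded sections of 5 µm. How an AOI was called p16 high or low, what stain guided it, and the strain, age and sex of the mice, are not stated in the labels. Each AOI pools the RNA of many cells, so fewer cells of a type and less RNA per cell cannot be told apart.

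p16 is a protein that inhibits the kinases CDK4 and CDK6 and holds the retinoblastoma protein in its growth-arresting state; its accumulation is a widely used marker of cellular senescence. It is encoded by Cdkn2a, a locus that also makes the unrelated protein Arf, which stabilises p53, from a separate first exon. Choroid plexus epithelium is known for transthyretin (Ttr) secretion, dense ion transport, many mitochondria and tufts of cilia.

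The Cdkn2a probe signal is a value for the gene, and the labels do not give which of these transcripts it reads. The sequence at both start sites of the gene is therefore shown. On mouse GRCm38.p6 (the mm10 build), Cdkn2a lies on the minus strand of chromosome 4, from 89274473 to 89294619. The sequences are from RefSeq and read 5′ to 3′ along the gene, with 250 bases before each start in lower case and the first 50 transcribed bases in capitals. The upstream start, used by Arf, lies in chr4:89294570-89294869, and the downstream start, used by p16, in chr4:89282143-89282442.
Upstream start: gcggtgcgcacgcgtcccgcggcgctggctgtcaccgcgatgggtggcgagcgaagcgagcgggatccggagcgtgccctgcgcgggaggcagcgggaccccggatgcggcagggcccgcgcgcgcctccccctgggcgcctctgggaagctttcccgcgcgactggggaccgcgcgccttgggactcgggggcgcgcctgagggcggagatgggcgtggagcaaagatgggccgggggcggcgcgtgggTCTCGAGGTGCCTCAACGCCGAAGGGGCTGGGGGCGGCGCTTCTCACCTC
Downstream start: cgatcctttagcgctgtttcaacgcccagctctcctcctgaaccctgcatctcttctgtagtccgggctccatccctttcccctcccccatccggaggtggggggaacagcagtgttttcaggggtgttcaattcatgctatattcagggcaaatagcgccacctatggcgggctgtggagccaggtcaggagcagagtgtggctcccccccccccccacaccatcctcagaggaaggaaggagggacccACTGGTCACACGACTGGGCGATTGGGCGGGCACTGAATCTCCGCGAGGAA
G and C made up 77.0% of the upstream and 60.3% of the downstream window.

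The deposited unit is a signal, scaled by the authors to the same median over genes in each AOI, 22.1. Recovered depth of the 14 AOIs ran from 240980 to 1396318 counts, with a median of 6 to 45 counts per gene, and the single negative control probe read 11.5 to 16.2 signal units. The tissue label held: Ttr ranged from 47331 to 96260.3 in the 16 choroid plexus AOIs, against 3.15 to 548 in the 74 hippocampal and cortical AOIs, and the neuronal gene Nrgn ranged from 26.8 to 69.2, against 949 to 8248. Log2 depth of the p16 high AOI minus that of its p16 low partner was -0.09 (SD 0.13, 7 mice; exact 2-sided sign-flip test, p = 0.156, adjusted p over 4 measures 0.208). The ratio of the median gene to the negative probe was 0.041 higher on the log2 scale in p16 high AOIs, in 6 of 7 mice (exact sign-flip p = 0.03125, adjusted 0.125), and the 75th percentile of signal 0.022 lower, with 1 of 7 mice higher (exact p = 0.0625, adjusted 0.125). The smallest p that 7 mice allow is 0.015625.

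Cdkn2a served as the check of the p16 labels. Values by mouse are given in the order 1152, 1157, 1162 and 1170 for CSS mice and 1151, 1168 and 1175 for ctrl mice. Cdkn2a signal was 24.7, 23.8, 22.1 and 22.1 in p16 high AOIs of CSS mice and 16.2, 17.7 and 27.99 in those of ctrl mice, against 16.3, 23.1, 14.2 and 7.36 in p16 low AOIs of CSS mice and 24.8, 22.1 and 22.1 in those of ctrl mice. It was higher in the p16 high AOI of all 4 CSS mice and of 1 ctrl mouse (1175), and lower in the p16 high AOI of ctrl mice 1151 and 1168, and the groups overlapped. The mean was 22.1 ± 4.06 in p16 high AOIs, against 18.6 ± 6.24 in p16 low AOIs (SD, n = 7 each). Over all 14 AOIs the mean was 1.47 times the mean negative probe. The mean log2 difference was 0.30 (SE 0.22), with a 95% interval of -0.15 to 0.75 (limma, adjusted p = 0.889; exact sign-flip test over 7 mice, p = 0.25). The transcript therefore did not separate p16 high from p16 low AOIs in choroid plexus beyond the spread between mice, and the groups below are called by their labels. In mouse 1170, which had the largest difference, the AOIs held about 6 and 2 Cdkn2a counts. Without this mouse the log2 difference was 0.11, and the 3 ctrl mice alone gave -0.19.

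**Figure D1:**
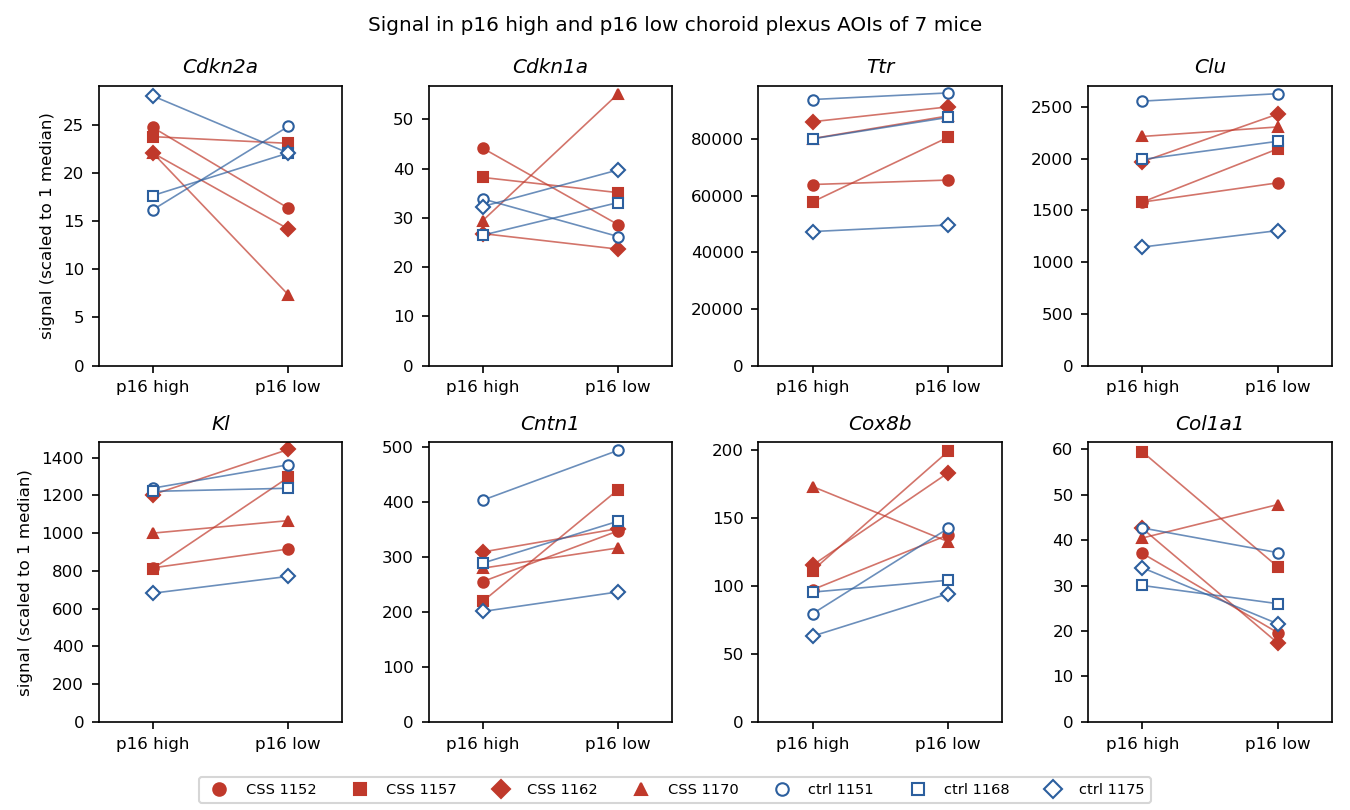
Signal of 8 genes in the p16 high (left) and p16 low (right) choroid plexus AOI of each of 7 mice, joined by a line, with CSS mice in filled red and ctrl mice in open blue. Each vertical axis is linear and starts at 0. Cdkn2a lines cross, while Ttr, Clu, Kl and Cntn1 are lower in the p16 high AOI of all 7 mice.

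Across all genes no difference passed the test. Values were taken as log2(signal + 1) and fitted with limma with the mouse as a block, and a gene was called at a Benjamini-Hochberg adjusted p under 0.05. None of 19962 genes was called (0%), the smallest adjusted p being 0.889. Without mouse 1170, the shallowest pair, 2 genes were called, Rgs19 and Cox8b, described below. At an unadjusted limma p under 0.05 there were 1046 genes (5.24%), of which 308 (1.54%) were higher and 738 (3.70%) lower in p16 high AOIs. Genes higher in all 7 mice numbered 93 (0.466%), and genes lower in all 7 numbered 226 (1.13%). The tilt towards lower values grew with signal: 56.6% of all genes were below 0, but 73.9% of the 2625 genes whose mean signal was at least 4 times the negative probe, whose median log2 difference was -0.07 against -0.03 for all genes. This tilt depended on the scaling, since quantile normalization gave 52.1% of those 2625 genes below 0 and division by the negative probe 59.5%. The median 95% interval reached 0.25 to either side for the signal quartile at the top and 0.49 for the one at the bottom.

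**Figure D2:**
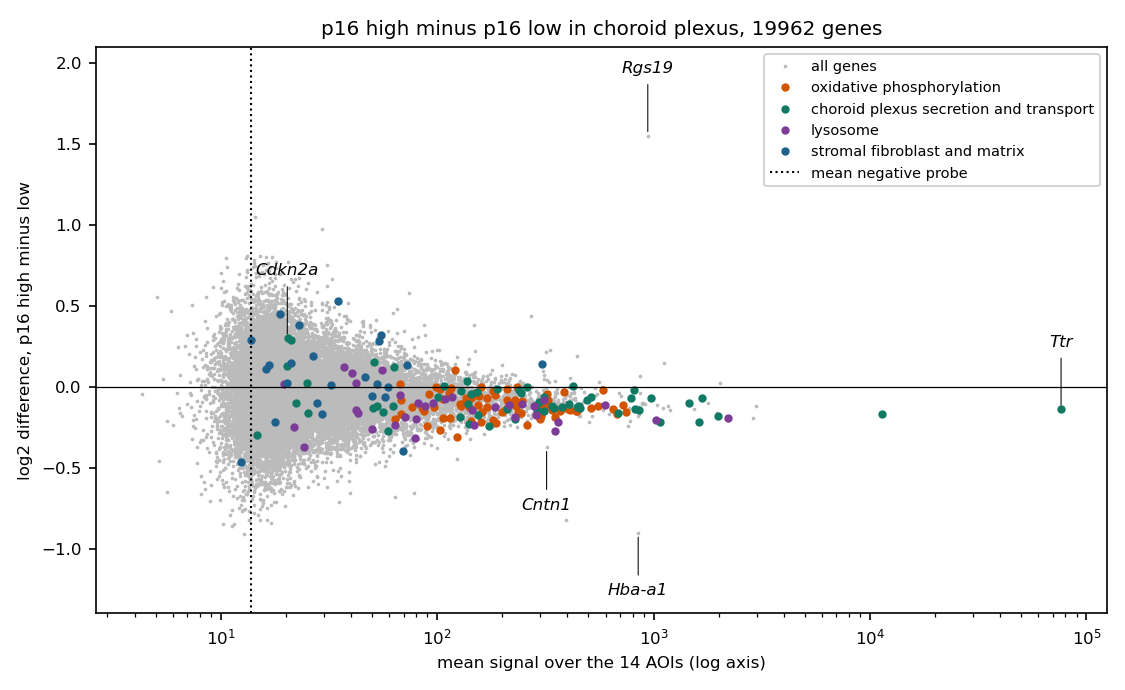
Log2 difference between p16 high and p16 low choroid plexus AOIs (mean of 7 mice, vertical axis) against mean signal over the 14 AOIs (log axis) for 19962 genes, with members of 4 groups of lists in colour and the mean negative probe as a dotted line. The spread narrows as signal grows, and 73.9% of genes at 4 or more times the negative probe lie below 0.

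The products that define choroid plexus epithelium had slightly lower values in p16 high AOIs, and none passed the test. Ttr, which carries thyroxine and retinol-binding protein into the cerebrospinal fluid, averaged 72760.4 ± 16745 in p16 high AOIs, against 79870.2 ± 16581 in p16 low AOIs (SD, n = 7 each). It was lower in the p16 high AOI of all 7 mice, with log2 differences of -0.14 to -0.04 in 6 of them and -0.48 in mouse 1157, with a mean log2 difference of -0.14 (SE 0.06) (limma, adjusted p = 0.889), or -0.08 without that mouse. For Clu, a secreted chaperone that binds amyloid, signal was 1580.0, 1580.3, 1970.2 and 2214 in p16 high AOIs of CSS mice and 2555, 1992 and 1146 in those of ctrl mice, against 1766, 2094, 2430.5 and 2306 in p16 low AOIs of CSS mice and 2627, 2167 and 1305 in those of ctrl mice. Each p16 high AOI was below its partner, although mice differed more from each other than AOIs within a mouse, and the log2 difference was -0.18 (SE 0.05).

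For Kl, which encodes the co-receptor Klotho, signal was 816, 812, 1204 and 1000.4 in p16 high AOIs of CSS mice and 1239, 1222 and 682 in those of ctrl mice, against 916, 1296, 1444 and 1067 in p16 low AOIs of CSS mice and 1363, 1238 and 771 in those of ctrl mice. It too was lower in the p16 high AOI of 7 of 7 mice, by -0.22 (SE 0.07) on the log2 scale. Igfbp2, an insulin-like growth factor binding protein, differed by -0.22 (SE 0.07) and Enpp2, which makes lysophosphatidic acid, by -0.17 (SE 0.06), with 6 and 5 of 7 mice lower. Ecrg4, a secreted growth inhibitor, differed by -0.07 (SE 0.06), with 4 of 7 lower. Without mouse 1157 the differences were -0.14 for Kl, -0.13 for Igfbp2 and -0.035 for Ecrg4. Of the 24 secreted and signalling genes listed for this epithelium, 21 were below 0, 8 were lower at an unadjusted p under 0.05 and none was called. At that cut, 262 of the 2625 genes at 4 or more times the negative probe were lower. The median log2 difference of the list was -0.12, against -0.03 for all genes and -0.07 for the 2625 genes at 4 or more times the negative probe, the nearer comparison for lists of abundant genes such as this one, and the list median was below 0 in each of the 7 mice. With quantile normalization at most 14 of the 24 were below 0 and the median was -0.01. Ttr and Enpp2 then had a difference of 0, because the method gives the 2 most abundant genes the same value in every AOI.

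Transporters and channels of the fluid-making epithelium were also mostly below 0, and none was called. Among the 2625 genes at 4 or more times the negative probe, 73.9% were below 0, and 262 were lower at an unadjusted p under 0.05. Of 35 listed genes, 29 were below 0 (21 with quantile normalization), 7 at an unadjusted p under 0.05, with a median of -0.11. For Kcnj13, an inward rectifier potassium channel of the apical membrane, signal was 549, 591, 779 and 930.5 in p16 high AOIs of CSS mice and 699, 658 and 362 in those of ctrl mice, against 655, 646, 933 and 809 in p16 low AOIs of CSS mice and 862, 697 and 441 in those of ctrl mice. Only mouse 1170 had the higher value in its p16 high AOI, and the log2 difference was -0.16 (SE 0.06). The monoamine transporter Slc29a4 (-0.23 (SE 0.09)), the export pump Abcc4 (-0.27 (SE 0.12)) and the sodium pump subunit Atp1b1 (-0.14 (SE 0.06)) were each lower in 5 of 7 mice.

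No ciliary or junction gene was called. Of 35 cilium and ependyma genes 24 were below 0, with a median of -0.06. Foxj1, the master regulator of motile cilia, had a log2 difference of -0.01 (SE 0.07), whose sign turned with quantile, 75th percentile and negative probe scaling, and the axonemal gene Cfap44 one of -0.14 (SE 0.09). Enkur, a protein of sperm and ciliary axonemes, was higher in 6 of 7 mice (0.40 (SE 0.15)), at 2.32 times the negative probe. Of 20 tight and adherens junction genes, 11 were below 0. F11r, which encodes a junctional adhesion molecule, had -0.23 (SE 0.10) and the scaffold Tjp3 -0.19 (SE 0.10), or -0.12 without mouse 1157.

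Genes of the mitochondrial respiratory chain were nearly all below 0, against 73.9% of the 2625 genes at 4 or more times the negative probe, and none was called. Of those 2625 genes, 262 were lower at an unadjusted p under 0.05. For complex I, 36 of 37 genes were below 0 and 9 were lower at an unadjusted p under 0.05, with a median of -0.12. For complexes II to V the counts were 37 of 39 and 14, with a median of -0.12. The list medians were below 0 in 6 of 7 mice in both, mouse 1170 being the exception, and 23 of 37 and 28 of 39 genes were below 0 with quantile normalization. For Ndufa3, an accessory subunit of complex I, signal was 201, 225, 219 and 305 in p16 high AOIs of CSS mice and 252, 289 and 184 in those of ctrl mice, against 242, 274, 318 and 338 in p16 low AOIs of CSS mice and 297, 305 and 196 in those of ctrl mice. All 7 mice had the lower value in the p16 high AOI, and the log2 difference was -0.23 (SE 0.07). The cytochrome c oxidase subunits Cox6b1 (-0.31 (SE 0.09)), Cox8a (-0.17 (SE 0.06)) and Cox8b (-0.45 (SE 0.12)) were each lower in 6 of 7 mice. For Cox8b signal was 97.1, 111, 115 and 173 in p16 high AOIs of CSS mice and 79.4, 95.3 and 62.97 in those of ctrl mice, against 137, 199, 183 and 132 in p16 low AOIs of CSS mice and 142, 104 and 94.2 in those of ctrl mice. Mouse 1170 ran against the others, and without it Cox8b differed by -0.59 (limma, adjusted p = 0.00418), 1 of 2 genes called in that fit.

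Other lists of abundant metabolic and biosynthetic genes were also mostly below 0. So were 73.9% of the 2625 genes at 4 or more times the negative probe, whose median was -0.07. In glycolysis, 19 of 21 genes were below 0 with a median of -0.11 (17 with quantile normalization); lactate dehydrogenase Ldhb had -0.24 (SE 0.06) and pyruvate kinase Pkm -0.17 (SE 0.06), each lower in 6 of 7 mice. In the oxidative stress list, 27 of 30 were below 0, among them Sod1 (-0.16 (SE 0.06)) and Prdx5 (-0.14 (SE 0.06)), both lower in 7 of 7 mice and both enzymes that remove reactive oxygen. Of 75 cytosolic ribosomal protein genes 62 were below 0, with a median of -0.07, but 34 with quantile normalization, where the median was 0.01. Rps15a had -0.24 (SE 0.08). Of 58 mitochondrial ribosome genes 47 were below 0, with Mrps12 at -0.35 (SE 0.11). Of 17 cytosolic heat shock genes 13 were below 0, with a median of -0.06, and 6 with quantile normalization. The heat shock and cytosolic ribosomal medians were thus close to that of the 2625 genes.

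Genes of the secretory and degradative routes were also mostly below 0, as were 73.9% of the 2625 genes at 4 or more times the negative probe. Of those 2625 genes, 262 were lower at an unadjusted p under 0.05. Of 26 genes of the unfolded protein response and secretory chaperones, 21 were below 0, 5 at an unadjusted p under 0.05, with a median of -0.11; Canx (-0.20 (SE 0.07)) and Pdia6 (-0.20 (SE 0.07)), which help glycoproteins and disulfide bonds fold, were lower in 7 of 7 mice. Of 34 lysosomal genes, 29 were below 0 and 9 at an unadjusted p under 0.05; the median was -0.13, was below 0 in all 7 mice, and remained below 0 with quantile (-0.06) and negative probe scaling (-0.09). For Npc2, which hands cholesterol out of the lysosome, signal was 319.5, 253, 349.9 and 265 in p16 high AOIs of CSS mice and 434, 403 and 213 in those of ctrl mice, against 353, 446, 394 and 371 in p16 low AOIs of CSS mice and 441, 407 and 254 in those of ctrl mice. It was lower in 7 of 7 mice, by little in mice 1151 and 1168, and the log2 difference was -0.27 (SE 0.08). Psap, the precursor of the saposins, had -0.19 (SE 0.06), and the proteases Ctsd and Ctsl had -0.21 (SE 0.07) and -0.22 (SE 0.08), each lower in 6 of 7 mice. Without mouse 1157 the differences were -0.18 for Npc2, -0.11 for Ctsd and -0.14 for Ctsl. Of 26 cholesterol and lipid transport genes 20 were below 0, including the lipoprotein Apoe (-0.16 (SE 0.06), or -0.10 without mouse 1157) and the sterol synthesis enzyme Sqle (-0.28 (SE 0.11)), lower in 7 of 7.

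**Figure D3:**
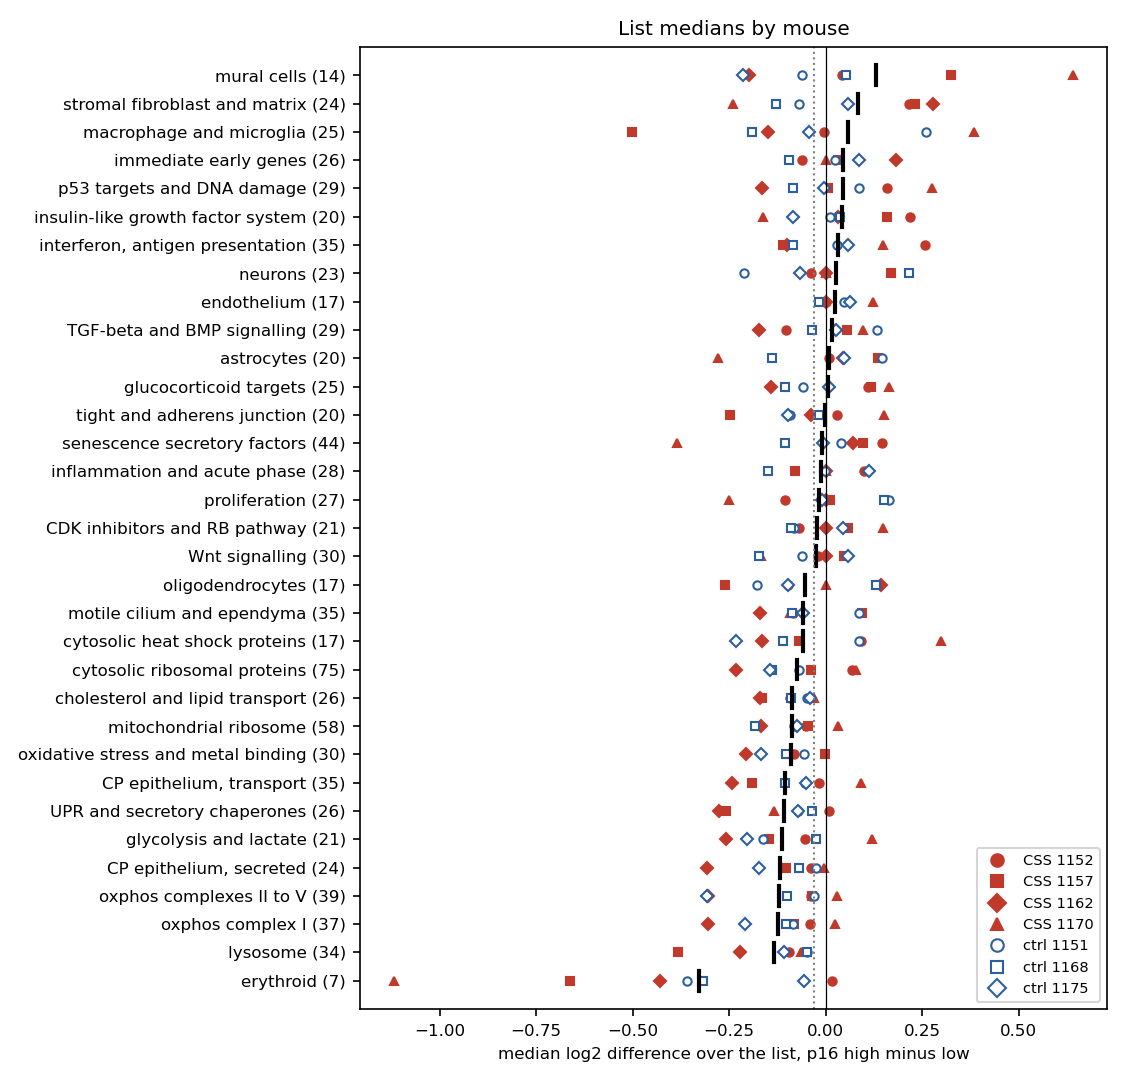
Median log2 difference, p16 high minus low, over each of 33 gene lists (number of measured genes in brackets) in each of 7 mice, with CSS mice in filled red and ctrl mice in open blue. Black bars are the median of the fitted values and the dotted line is the median of all genes, -0.03 (genes at 4 or more times the negative probe have -0.07). The lysosome and secreted epithelium lists lie below 0 in every mouse, while stromal and mural lists spread on both sides.

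The genes with the lowest test statistics were named whether or not they passed, and none did. Cntn1, a cell adhesion molecule of the immunoglobulin family, had the smallest p of all genes. For Cntn1 signal was 255, 219, 309 and 279.5 in p16 high AOIs of CSS mice and 403, 289 and 201 in those of ctrl mice, against 347, 422, 351 and 316 in p16 low AOIs of CSS mice and 494, 365 and 236 in those of ctrl mice. Every p16 high AOI was below its partner, most in mouse 1157, and the log2 difference was -0.37 (SE 0.08) (limma, adjusted p = 0.889). Slc25a46, a protein of the outer mitochondrial membrane, differed by -0.58 (SE 0.13) and was lower in 7 of 7 mice, as were the scaffold gene Dlgap1 (-0.46 (SE 0.12)), Fam222a (-0.48 (SE 0.12)), the heparan sulfate proteoglycan Gpc4 (-0.43 (SE 0.12)), Stxbp3, which binds syntaxin (-0.39 (SE 0.11)), and the hydrolase Nudt3 (-0.36 (SE 0.10)). Rlbp1, a retinoid carrier, was lower in 6 of 7 (-0.49 (SE 0.13)).

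On the high side, most genes with large statistics lay near background. Unc93a had 0.76 (SE 0.20), Deup1, which builds the centrioles of multiciliated cells, 0.73 (SE 0.19), and the transcription factor Klf10 0.61 (SE 0.16), all higher in 7 of 7 mice and all at 1.20 to 1.78 times the negative probe. For Deup1 signal was 15.01, 18.7, 15.8 and 36.8 in p16 high AOIs of CSS mice and 26.5, 24.7 and 23.1 in those of ctrl mice, against 13.9, 10.03, 11.03 and 14.7 in p16 low AOIs of CSS mice and 16.6, 13.4 and 11.3 in those of ctrl mice. Among genes at 4 or more times the negative probe, 7 were higher in all 7 mice (0.267%) and 78 lower (2.97%). The 7 included Fcho2, an endocytic adaptor (0.35 (SE 0.11)), the matrix protein Sparc (0.17 (SE 0.08)), Gm52800 (0.14 (SE 0.06)) and Gm6958 (0.58 (SE 0.17)), the last with 2.03 in mouse 1168 and at most 0.53 in the other mice, and a mean of 0.34 without mouse 1168.

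The mural and stromal lists had the highest medians of the 33 lists, and no gene in them was called. Of all 19962 genes, 8664 were above 0. Of 24 fibroblast and matrix genes, 17 were above 0, with a median of 0.08 and list medians above 0 in 4 of 7 mice. For Col1a1, a chain of type I collagen, signal was 37.1, 59.4, 42.6 and 40.5 in p16 high AOIs of CSS mice and 42.7, 30.01 and 33.9 in those of ctrl mice, against 19.6, 34.1, 17.3 and 47.8 in p16 low AOIs of CSS mice and 37.2, 26.01 and 21.6 in those of ctrl mice. It was higher in the p16 high AOI of 6 mice and lower in mouse 1170, and the log2 difference was 0.53 (SE 0.16) at 2.53 times the negative probe. Slc6a13, a GABA and taurine transporter of leptomeningeal cells, was higher in 7 of 7 (0.45 (SE 0.19)), Mgp, an inhibitor of calcification, in 5 of 7 (0.14 (SE 0.09)), and the matrix gene Fbln1 was lower in 6 of 7 (-0.40 (SE 0.12)). Slc6a13 lay near background, with 2 of the 14 AOIs at or below their negative probe. Its median signal was 18.5 in choroid plexus and 21.2 in hippocampus and cortex. Mgp had 0.07 without mouse 1157 and 0.25 without mouse 1151. Of 14 mural genes 12 were above 0, with a median of 0.13 and none at an unadjusted p under 0.05. The list lay near background, at a median of 1.53 times the negative probe. The list median was below 0 in 3 of 7 mice, and ran from -0.21 in mouse 1175 to 0.64 in mouse 1170. On leaving out a mouse it ran from 0.036 to 0.16. Rgs5 had 0.14 (SE 0.10) (0.24 without mouse 1175). With signal over background as a covariate 12 of 14 mural genes were below 0. Of 17 endothelial genes 9 were above 0 and 8 below, with a median of 0.02, 3 higher and 1 lower at an unadjusted p under 0.05. Emcn (0.28 (SE 0.11)), Ly6c1 (0.34 (SE 0.13)) and Tie1 (0.31 (SE 0.14)) were each higher in 6 of 7 mice, while Slco1a4, an organic anion transporter, had -0.27 (SE 0.13) and was lower in 4 mice, higher in 2 and equal in mouse 1170. Ly6c1 had 0.22 without mouse 1152 and Tie1 0.20 without mouse 1170. The summed signal of the stromal list was 869 to 1405 in p16 high and 817 to 1353 in p16 low AOIs, so the groups overlapped.

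No marker of other cell types was called. Of 25 macrophage and microglia genes 14 were above 0, and the complement gene C1qc had 0.14 (SE 0.23), with 2.17 in mouse 1170 and at most 0.07 elsewhere; C1qb had 0.24 (SE 0.22) and Cx3cr1 -0.35 (SE 0.20). Without mouse 1170 C1qc had -0.20 and C1qb -0.039. Of 23 neuronal genes 13 were above 0 and 10 below (median 0.03), of 20 astrocyte genes 10 and 10 (median 0.00874), and of 17 oligodendrocyte genes 6 and 11 (median -0.05). Neuronal genes summed to 441 to 593 in p16 high and 451 to 592 in p16 low AOIs, astrocyte genes to 744 to 1096 and 744 to 1122, and oligodendrocyte genes to 432 to 547 and 421 to 560. The astrocyte sum is not a measure of astrocytes alone. Median signal of Sox9 was 160 in choroid plexus and 28.5 in hippocampus and cortex, and that of Aldh1l1 61.8 and 25.7. Acsl6 had 74.8 and 60.2, while Glul had 278 and 329 and Slc1a2 31.7 and 336. Nrgn had -0.21 (SE 0.12), Glul, the glutamine synthetase that other tissues also hold, 0.09 (SE 0.09) (0.011 without mouse 1157), and the myelin gene Mobp -0.47 (SE 0.17), the last lower in 6 of 7 mice. The part of these cells in the differences above was not tested.

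No gene of the senescence programme was called, and the list medians lay close to 0. In the list of cyclin-dependent kinase inhibitors and the RB pathway, 9 of 21 genes were above 0 and 12 below, with a median of -0.02 and none at an unadjusted p under 0.05. Cdkn1a, which encodes the p53-induced inhibitor p21, averaged 33.02 ± 6.40 in p16 high AOIs, against 34.5 ± 10.6 in p16 low AOIs, a log2 difference of -0.03 (SE 0.16) that was higher in 4 mice and lower in 3. Cdkn1b had -0.02 (SE 0.09), and Cdkn1c, which encodes the inhibitor p57, 0.03 (SE 0.07). The sign of these 3 turned under other settings.

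Of 44 secretory factors associated with senescence, 21 were above 0 and 23 below, with 1 of each at an unadjusted p under 0.05. For Igfbp7, signal was 413, 435, 708 and 508 in p16 high AOIs of CSS mice and 478, 458 and 272 in those of ctrl mice, against 271, 427, 589 and 541 in p16 low AOIs of CSS mice and 463, 438 and 201 in those of ctrl mice. It was higher in 6 of 7 mice, by 0.19 (SE 0.08), and the related Igfbp4 and Igfbp5 had 0.22 (SE 0.11) and 0.32 (SE 0.16). Without mouse 1152 Igfbp7 had 0.12 and Igfbp5 0.19, without mouse 1157 Igfbp4 had 0.10, and without mouse 1170 Igfbp5 had 0.49. The chemokine gene Ccl3 had -0.50 (SE 0.21) and was lower in 6 of 7 mice, at 1.18 times the negative probe. Of 29 p53 target and DNA damage genes 17 were above 0; the death receptor Fas had -0.62 (SE 0.24) (-0.34 without mouse 1170), Ccng1 -0.14 (SE 0.10) (-0.09 without mouse 1168) and Mdm2, the ligase that degrades p53, 0.01 (SE 0.10). Of 27 proliferation genes 10 were above 0, and Mki67 had 0.47 (SE 0.24) at 1.64 times the negative probe (0.24 without mouse 1162 and 0.31 without mouse 1170). In inflammatory lists, the interferon-induced Bst2 had -0.38 (SE 0.12) (-0.23 without mouse 1157) and Socs3, which dampens cytokine signals, -0.39 (SE 0.18), lower in 6 and 7 of 7 mice, while 22 of 35 interferon and antigen presentation genes and 13 of 28 inflammation genes were above 0. H2-T23, a class I histocompatibility gene, was higher in 6 of 7 mice (0.30 (SE 0.12)). Among the immediate early genes, 15 of 26 were above 0. The stress-induced transcription factor Atf3 had 0.70 (SE 0.23), near background, with 5 of the 14 AOIs at or below their negative probe. The transcription factor Klf6 had -0.39 (SE 0.17) and was lower in 6 of 7 mice. Medians were 0.01 for 25 glucocorticoid targets, 0.04 for 20 genes of the insulin-like growth factor system, 0.02 for 29 of TGF-beta and BMP signalling and -0.03 for 30 of Wnt signalling.

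Whether the p16 difference depended on stress was asked by subtracting the ctrl mice's difference from that of the CSS mice. No gene was called by limma (0% of 19962; smallest adjusted p = 0.9999), and 669 (3.35%) had an unadjusted p under 0.05. Fitted alone, the CSS mice gave 0 called genes (limma; 317 higher and 506 lower at an unadjusted p under 0.05). The ctrl mice alone gave 2, Hba-a1 and Hbb-b1, both higher in p16 high AOIs (342 higher and 793 lower unadjusted). With the spread estimated over all 7 mice, 0 genes were called by limma within the CSS mice (1439, or 7.21%, at an unadjusted p under 0.05) and 0 within the ctrl mice (344, or 1.72%), so neither haemoglobin gene was called there. Cdkn2a had 0.67 in CSS and -0.19 in ctrl mice, a difference of 0.86 (SE 0.41; limma, unadjusted p = 0.0482, adjusted p = 0.9999). The lowest statistics belonged to haemoglobin genes: Hbb-b1 had -2.02 in CSS and 0.77 in ctrl mice, and Hba-a1 -2.08 and 0.66. For Man2b1, a lysosomal mannosidase, signal was 60.02, 50.1, 74.1 and 55.2 in p16 high AOIs of CSS mice and 110.3, 82.97 and 62.4 in those of ctrl mice, against 76.8, 103, 104 and 88.3 in p16 low AOIs of CSS mice and 106, 72.5 and 59.8 in those of ctrl mice. Its p16 high AOI was lower in all 4 CSS mice and higher in all 3 ctrl mice, and the reverse held for Zfp114 and Afap1 (differences between CSS and ctrl of 1.56 and 1.10), none of them called. Zfp114 lay near background, with 5 of the 14 AOIs at or below their negative probe.

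The p16 difference of choroid plexus was then set against that of the hippocampal fields CA1 and CA3 and the motor and somatosensory cortex of the same mice, using 54 AOIs. No gene was called by limma (0%; smallest adjusted p = 0.301), but 1832 genes (9.18%) had an unadjusted p under 0.05, with 1471 (7.37%) lower and 361 (1.81%) higher in choroid plexus. Of all genes 60.3% were below 0. Without mouse 1170, 2 genes were called, Rgs19 with a higher and the calmodulin-binding Pcp4 with a lower p16 difference in choroid plexus. With quantile normalization 2 were called, Gm6958 and Ttr, both higher, the value of Ttr in choroid plexus being 0 by the construction of the method. The 2625 genes at 4 or more times the negative probe had a median of -0.07 in choroid plexus and 0.10 elsewhere. Respiratory chain genes lay on the same sides of 0: complex I had -0.12 and 0.13, and complexes II to V -0.12 and 0.17. At an unadjusted p under 0.05, 21 of 37 and 29 of 39 of these genes were lower in choroid plexus and 0 higher. Lysosomal (17 of 34), glycolytic (12 of 21), chaperone (10 of 26) and ribosomal protein (17 of 75) genes were also among the lower ones. No such count was made for the 2625 genes at 4 or more times the negative probe.

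Among single genes, Cntn1 had -0.37 in choroid plexus and 0.14 elsewhere, a difference of -0.52 (SE 0.10; limma, adjusted p = 0.301) seen in 7 of 7 mice. Ldhb had -0.24 and 0.22, Pebp1, which encodes Raf kinase inhibitor protein, -0.21 and 0.20, and Nme2, a nucleoside diphosphate kinase, -0.18 and 0.26. The secreted epithelium list had -0.12 and -0.03.

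**Figure D4:**
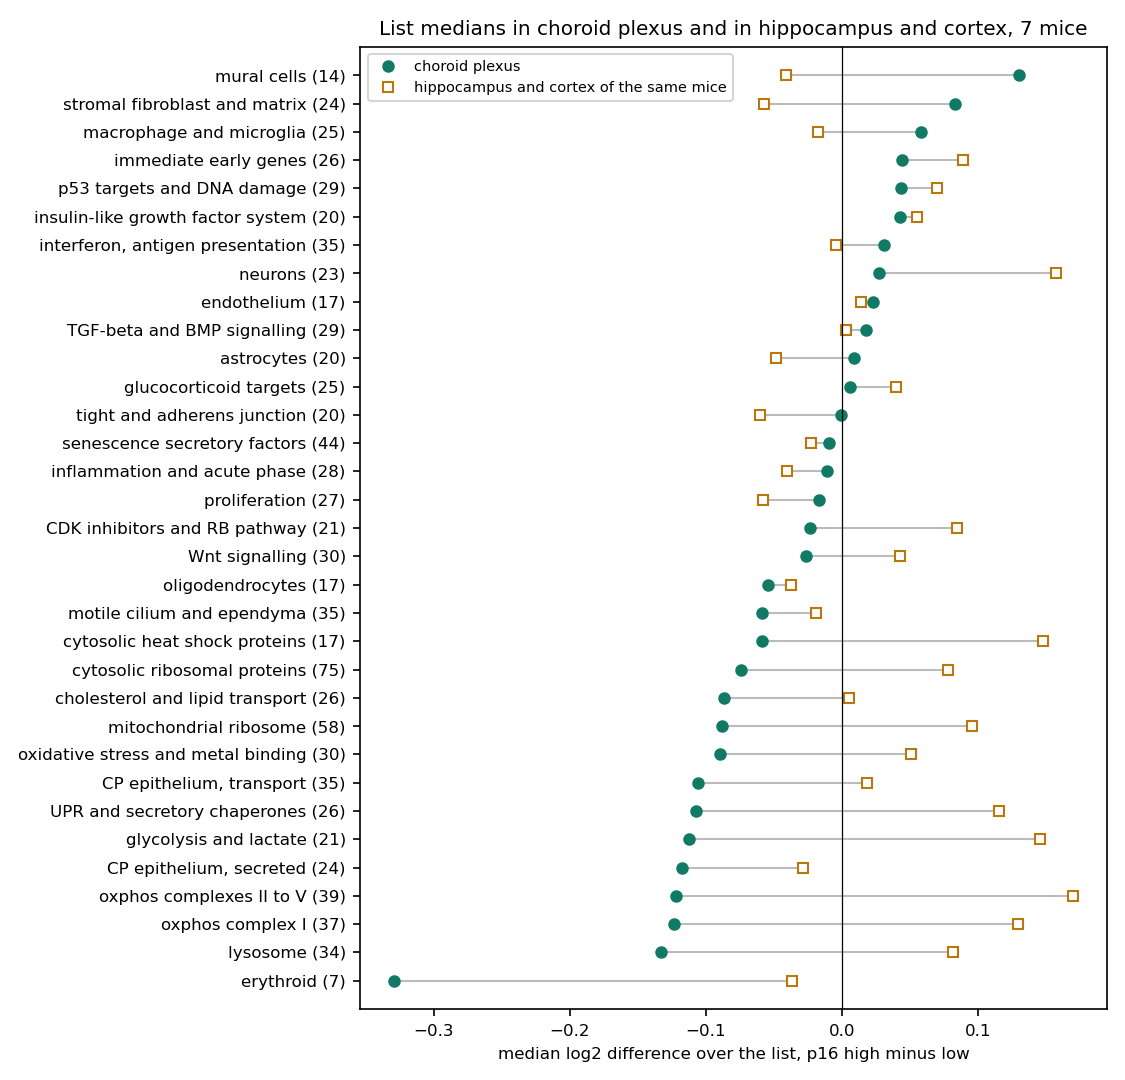
Median log2 difference, p16 high minus low, over 33 gene lists in choroid plexus (filled circles) and in hippocampus and cortex (open squares; same 7 mice), ordered by the choroid plexus value. Respiratory chain, glycolysis and ribosomal lists lie below 0 in choroid plexus and above 0 in the other subregions. So do the 2625 genes at 4 or more times the negative probe, with medians of -0.07 and 0.10 (not drawn).

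Some genes had widely different values in the 2 AOIs of single mice. Chosen after their values were seen, 11 genes at 4 or more times the negative probe (0.419% of 2625) differed by at least 2 on the log2 scale in at least 1 mouse. For Rgs19, a regulator of G protein signalling, signal was 272, 520.3, 6417 and 243 in p16 high AOIs of CSS mice and 2285, 985 and 42.5 in those of ctrl mice, against 76.01, 100.3, 307 and 1427 in p16 low AOIs of CSS mice and 266, 105 and 119.7 in those of ctrl mice. It was higher in the p16 high AOI of 5 mice, by 1.83 to 4.38 on the log2 scale, and lower in mice 1170 (-2.55) and 1175 (-1.47). The mean log2 difference was 1.55 (SE 0.52) (limma, adjusted p = 0.889), and without mouse 1170 it was 2.24 (adjusted p = 0.00201), the other gene called in that fit.

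The haemoglobin genes varied as much. For Hba-a1, signal was 426, 41.6, 1261 and 508 in p16 high AOIs of CSS mice and 744, 90.03 and 902 in those of ctrl mice, against 422, 1511, 2383 and 2431 in p16 low AOIs of CSS mice and 390.3, 53.6 and 721 in those of ctrl mice. The p16 high AOI was far lower in mouse 1157 (-5.15) and lower in mice 1162 and 1170, while it was higher in the ctrl mice. Hbb-b1 (-4.79) and Hbb-b2 (-3.07) were also far lower in the p16 high AOI of mouse 1157. Their mean differences in the ctrl mice were 0.77 and 0.33, although Hbb-b2 was not higher in each of these mice. Without mouse 1157 the mean differences were -0.19 for Hba-a1, -0.16 for Hbb-b1 and -0.26 for Hbb-b2. All 7 genes of the erythroid list, which holds Hba-a1 but not the other 2, had a mean difference below 0. For S1pr2, a sphingosine receptor, signal was 15.9, 22.1, 28.4 and 22.1 in p16 high AOIs of CSS mice and 17.7, 21.2 and 20.99 in those of ctrl mice, against 20.4, 20.1, 18.9 and 617.9 in p16 low AOIs of CSS mice and 16.6, 27.6 and 22.6 in those of ctrl mice. The p16 low AOI of mouse 1170 stood alone at 617.9, and all other choroid plexus AOIs lay at or below 28.4. Mplkip, Sumf1, Ptprk, Rara and Elof1 each had 1 mouse of this kind. Without that mouse the mean difference was -0.0048 for S1pr2, 0.024 for Mplkip, -0.038 for Sumf1, 0.06 for Ptprk, -0.019 for Rara and 0.20 for Elof1. The part of any single AOI in these values beyond leaving out its mouse was not tested.

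**Figure D5:**
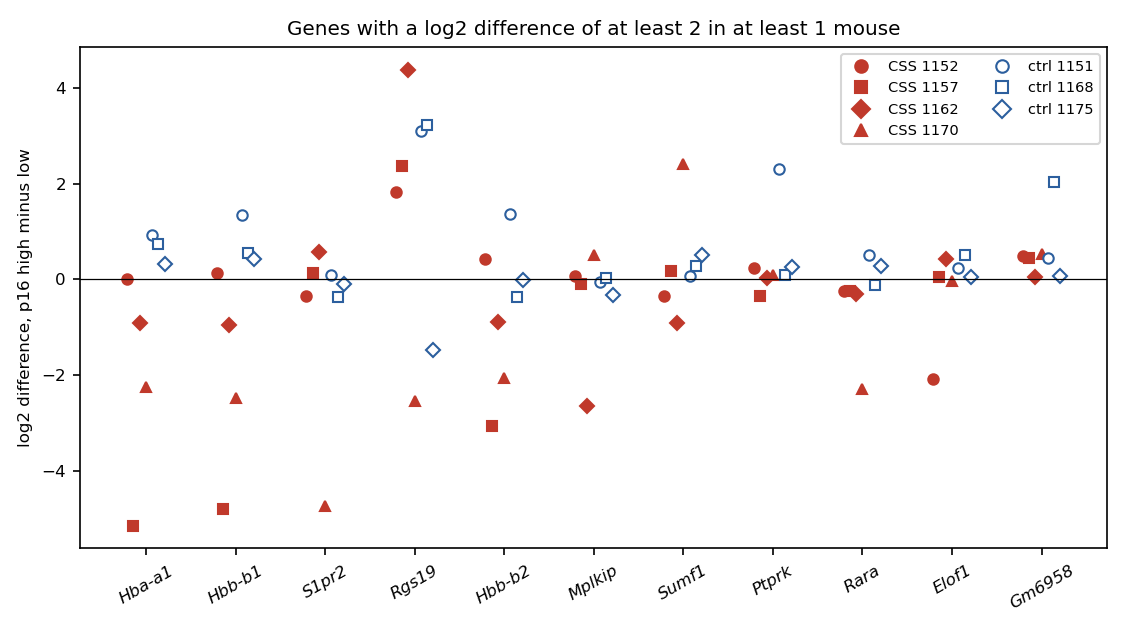
Log2 difference, p16 high minus low, in each of 7 mice for the 11 genes with at least 1 difference of 2 or more, with CSS mice in filled red and ctrl mice in open blue. Points of Rgs19 run from -2.55 to 4.38, while S1pr2, Mplkip, Rara and Elof1 each have a single mouse far below 0.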

How the data were processed

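RNA was measured by GeoMx in 90 AOIs of 10 mice, per the labels. The deposited table holds 1 signal value for each of 19962 genes and 1 negative probe, which the authors scaled to a common median, as the values show; per the submitters' processing notes the genome build was mm10, and the labels name no aligner or counter. Depth was recovered by dividing each AOI by the step of 1 read, which left at least 99.985% of its values within 0.01 of a whole number; it was used only to describe depth.

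Fits used log2(signal + 1) in limma 3.58.1 (R 4.3.3): lmFit with the mouse as a block, then eBayes with a trend, 2-sided, Benjamini-Hochberg adjustment over all genes. Fold changes on this scale understate those of low genes. The pairing comes from the mouse number: both AOIs are of 1 animal, and their deviations from the group means correlated at 0.02 to 0.54. The comparison with hippocampus and cortex used each mouse's mean difference over the subregions with both labels (4, and 3 in mouse 1170). Sign-flip tests were exact. The fits were tested on simulated data. Figures were drawn with matplotlib.

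Of 924 genes in 33 lists, 910 matched. Members and lists were chosen with earlier results of these data known. The naming rule gave 217 genes, of which 88 are named, and 7 more were added after their values were seen. It took Cdkn2a and Cdkn1a; genes among the 10 highest and lowest statistics and differences (same sign in 7 mice, at least 4 times the negative probe); up to 4 genes of each list by p and, for cell type and senescence lists, 4 by signal; and the 8 highest and lowest statistics of both other comparisons; 1 gene so chosen is not reported here. Alternatives were other scalings, pseudocounts (10), filters, blocks and left-out mice.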

Additional observations from a re-analysis of the deposited data

Results flagged for a closer look

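For 98 measures (the 95 genes named and 3 of depth and signal), the difference of the mouse farthest from the others was set against the range over all 7 mice by Dixon's test. In 16 of them 1 mouse stood apart, 7 involving mouse 1170, which had the lowest depth, and 5 mouse 1157. Chance gives about 1 in 20, but this count cannot be read against it: 11 genes were chosen because 1 mouse had a large difference and hold 7 of the 16, and the other 87 measures, with 9, include genes chosen by their values in these mice. No explanation was tested. All values are log2 differences, p16 high minus low. Mouse 1170 stood apart in Kcnj13 (0.20, other mice -0.30 to -0.08), Unc93a (1.503, other mice 0.33 to 0.83), C1qc (2.17, other mice -0.83 to 0.07), Fas (-2.30, other mice -0.78 to 0.36), S1pr2 (-4.75, other mice -0.37 to 0.56), Sumf1 (2.40, other mice -0.92 to 0.51) and Rara (-2.29, other mice -0.32 to 0.52). Mouse 1157 stood apart in Ttr (-0.48, other mice -0.14 to -0.04), Kl (-0.67, other mice -0.26 to -0.02), Igfbp2 (-0.74, other mice -0.29 to 0.04), Cntn1 (-0.94, other mice -0.44 to -0.18) and Apoe (-0.54, other mice -0.17 to -0.05), all of them lower in its p16 high AOI. Mouse 1168 stood apart in Gm6958 (2.03, other mice 0.05 to 0.53), mouse 1162 in Mplkip (-2.66, other mice -0.32 to 0.52), mouse 1151 in Ptprk (2.30, other mice -0.34 to 0.26) and mouse 1152 in Elof1 (-2.09, other mice -0.04 to 0.51).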

How the results depend on the processing

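With limma, 11 of 12 planned settings other than leaving out a mouse called 0 genes for p16 high minus low, among them the fit with no replicate block (0 genes; the AOIs of a pair come from 1 mouse). The ctrl mice alone called 2 genes, Hbb-b1 and Hba-a1, and AOI quality weights, an alternative chosen after seeing the data, called 7 (4 higher, 3 lower), among them Rgs19, Cox8b, Cntn1, Gm6958 and Bst2. Leaving out 1 mouse gave 0 to 2 genes, the 2 being Rgs19 and Cox8b without mouse 1170. The interaction with stress gave 0 genes under each alternative run, 0 to 0 on leaving out a mouse. The comparison with hippocampus and cortex gave 0 to 2 genes on leaving out a mouse, the 2 being Rgs19 and Pcp4 without mouse 1170, and 2 with quantile normalization, Gm6958 and Ttr. The planned edgeR and DESeq2 fits were not run: a separate check of the deposited values did not accept them as whole counts in 7 of the 14 AOIs, although the step used here left at least 99.985% of values within 0.01 of a whole number, and recovered counts served only to describe depth. The log2 difference of Cdkn2a ran from 0.11 to 0.45 on leaving out a mouse, was -0.023 with signal over background as a covariate beside the replicate block and -0.19 in the ctrl mice alone. The shift of log2 depth ran from -0.13 to -0.068 and that of signal over the negative probe from 0.035 to 0.049 on leaving out a mouse; in 6 of those 7 settings the exact sign-flip p of the second was 0.0625. For the other 94 named genes, 68 of 1872 values under other settings were reversed, and 67 genes had none reversed; Ttr and Enpp2 had a value of 0 with quantile normalization. With scaling to the negative probe, the sign turned for Cdkn1a (0.00730), Cdkn1b (0.0233) and Foxj1 (0.0300). In the CSS mice alone, the sign turned for Cdkn1a (0.00394), Cdkn1b (0.00480), Ccng1 (0.0171) and Mdm2 (-0.18). With AOI quality weights, the sign turned for Cdkn1a (0.00299), Cdkn1c (-0.00350), C1qc (-0.12) and Zfp114 (-0.13). With quantile normalization, the sign turned for Cdkn1b (0.0454), Ecrg4 (0.0280) and Foxj1 (0.0494). With scaling to the 75th percentile, the sign turned for Cdkn1b (0.00437) and Foxj1 (0.0110). With signal over background as a covariate beside the replicate block, the sign turned for Cdkn1c (-0.18), Ly6c1 (-0.0794), Tie1 (-0.0513), Rgs5 (-0.13), C1qb (-0.0758), C1qc (-0.51), Glul (-0.16), Atf3 (-0.0317), Hba-a1 (0.39), Hbb-b1 (0.45), Man2b1 (0.0291), Zfp114 (-0.81), Afap1 (-0.0984), S1pr2 (0.78), Sumf1 (-0.31), Rara (0.40) and Elof1 (0.35). With all 90 AOIs in 1 fit, the sign turned for Ecrg4 (0.0561), Foxj1 (0.10) and Mdm2 (-0.0659). In the ctrl mice alone, the sign turned for Ecrg4 (0.0120), Mgp (-0.14), C1qc (-0.13), Glul (-0.0277), Igfbp4 (-0.0375), Hba-a1 (0.66), Hbb-b1 (0.77), Hbb-b2 (0.33), Man2b1 (0.10), Zfp114 (-0.75), Afap1 (-0.35), Rara (0.23) and Elof1 (0.26). With random mouse effects over 16 choroid plexus AOIs, the sign turned for Foxj1 (0.0387) and Mdm2 (-0.0368). On leaving out a mouse, the sign turned within the ranges Cdkn1a -0.14 to 0.11, Cdkn1b -0.0437 to 0.0146, Cdkn1c -0.0118 to 0.0787, Foxj1 -0.0395 to 0.0156, C1qb -0.0391 to 0.39, C1qc -0.20 to 0.30, Mdm2 -0.0680 to 0.0732, Zfp114 -0.0446 to 0.34, Mplkip -0.50 to 0.0241, Sumf1 -0.0379 to 0.52 and Elof1 -0.23 to 0.20. Of the 95 named genes, 42 moved by over 1.5 times or turned without 1 of the mice. The cause was not tested for any of these. List medians moved by less than the SD of the list's median between mice in 358 of 363 settings. The others were, with quantile normalization, the secreted epithelium (-0.00884) and cholesterol (-0.0150) lists. With the covariate they were the endothelium (-0.0513), complexes II to V (-0.27) and cytosolic ribosomal (-0.19) lists. A change of sign did not count as a move by itself. The mural list, whose SD was 0.31, was mostly below 0 with the covariate and is not among them. No scaling moved the median of all genes by over 0.1. Genes near the negative probe, Cdkn2a among them, rest on few counts, from 6 to 45 for the median gene, and their intervals are wide. The p16 labels were not checked against a stain, and 7 mice limit the precision of every value.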
